A study of Homo sapiens with 9 samples.

Results

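Amino acid transporters of growing cells were examined in the human lymphoblastoid line GM12878 after exposure to sulforaphane, an isothiocyanate known to activate the transcription factor NRF2. The set held 9 genes, SLC7A5, SLC3A2, SLC1A4, SLC1A5, SLC38A1, SLC38A2, SLC43A1, SLC7A1 and SLC7A6, chosen by symbol with earlier results of these data known. A gene counted as measured when a transcript cluster of the array carried its symbol and no other, which was so for 8 of the 9 genes, out of 14232 named genes and 22011 transcript clusters in all. SLC7A6 had no cluster of its own, because both clusters that carried its symbol also carried that of the neighbouring gene SLC7A6OS. SLC1A5 had 2 clusters of its own, and the brighter stood for it.

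RNA came from 9 cultures, each on 1 Affymetrix Human Exon 1.0 ST array. The groups were 3 untreated cultures at 0 h, 3 cultures after 8 h in 10 µM D,L-sulforaphane and 3 after 24 h in 10 µM D,L-sulforaphane. All cultures were seeded at 900000 cells per ml in RPMI medium with 15% serum. A vehicle of 0.1% DMSO is named in the protocol, but no array from vehicle-treated cells or from cells kept 8 or 24 h without sulforaphane was used here, so time in culture and treatment cannot be told apart. GM12878 is a single line, transformed with Epstein-Barr virus, and the replicates are cultures of that line.

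Growing lymphocytes import amino acids through a small group of carriers. SLC7A5 (LAT1) exchanges intracellular glutamine for leucine and other large neutral amino acids, and reaches the membrane only when joined to the glycoprotein SLC3A2, the heavy chain of CD98. SLC1A5, SLC38A1 and SLC38A2 bring in glutamine and small neutral amino acids, SLC1A4 carries alanine, serine and cysteine, SLC43A1 is a sodium-independent leucine carrier, SLC7A1 imports arginine and lysine, and SLC7A6 is another light chain of SLC3A2. Leucine and arginine that enter activate the growth kinase complex mTORC1. Transcription of these genes is known to respond to MYC in proliferating cells and to ATF4 in cells short of amino acids.

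RefSeq promoter windows (GRCh38.p14, 250 bases before to 50 after a transcript start) were held for all 9 genes, 16 windows in total. They were searched on both strands for CACGTG, the E-box that MYC with MAX is known to bind, for TGATGNAA, the core of the element bound by ATF4 with a C/EBP protein, and for TGACNNNGC, the core of the antioxidant response element bound by NRF2 with a small MAF protein. The E-box lay in 7.26% of all 35116 windows of 300 bases, the ATF4 core in 3.62% and the antioxidant core in 13.3%. Among the 16 windows of the transporters, 3 held an E-box, 5 an ATF4 core and 5 an antioxidant core. The 250 bases before the only start of SLC7A5 (chr16:87869508-87869757, minus strand) and before the first start listed of the 3 of SLC3A2 (chr11:62881449-62881698, plus strand) are shown because these genes encode both chains of CD98 and differed in their measured course. Capitals mark the E-box of SLC7A5, at bases -130 to -125 from the start, and the antioxidant core of SLC3A2, at bases -37 to -29.
SLC7A5: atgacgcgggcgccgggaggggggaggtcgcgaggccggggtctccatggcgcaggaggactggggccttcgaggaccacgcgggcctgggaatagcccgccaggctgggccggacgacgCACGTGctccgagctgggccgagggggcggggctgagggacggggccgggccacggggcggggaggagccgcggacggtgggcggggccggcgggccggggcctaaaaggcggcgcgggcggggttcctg
SLC3A2: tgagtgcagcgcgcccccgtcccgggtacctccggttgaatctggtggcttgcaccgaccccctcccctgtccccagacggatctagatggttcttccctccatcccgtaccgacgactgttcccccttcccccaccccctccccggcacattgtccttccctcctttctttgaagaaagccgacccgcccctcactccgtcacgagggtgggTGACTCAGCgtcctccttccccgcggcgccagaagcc

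The SLC7A5 window also held an antioxidant core across the start itself, at bases -2 to 7, and the SLC3A2 window held an ATF4 core on the other strand at bases 38 to 45. The windows of starts 2 and 3 of SLC3A2 held none of the 3 motifs. Whether a motif bears on the course of either gene was not tested. Windows of 30 bases around 4 further matches show the element each carries, with the match in capitals. They are the E-box of SLC43A1 (chr11:57515797-57515826, minus strand), the ATF4 cores of SLC7A1 (chr13:29595663-29595692, minus strand) and SLC38A1 (chr12:46266502-46266531, minus strand), and that of SLC1A4 on the other strand (chr2:64989381-64989410, plus strand).
SLC43A1: cagcgggcgagtCACGTGcgcgtgaaactc
SLC7A1: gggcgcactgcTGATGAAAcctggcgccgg
SLC38A1: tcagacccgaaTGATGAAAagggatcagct
SLC1A4: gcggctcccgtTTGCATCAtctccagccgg
SLC38A2 held none of the 3 motifs in its only window. SLC1A5 held all 3, none of them in the first of its listed windows. A match describes these letters only.

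Values are log2 RMA signals, so a difference of 1 is a doubling, and each array gave a mean signal over all clusters between 7.97 and 8.14. A gene was called changed at a Benjamini-Hochberg adjusted p below 0.05 over all 22011 clusters with limma. Errors of changes are standard errors and errors of group means are SDs, with n = 3 arrays per group. Signals of different probes cannot be ranked against each other, so the marker signals describe the B-cell label without testing it. The 11 measured B-lineage markers, of 12 listed, had mean signals between 9.72 for BLK and 13.43 for CD74, while 10 T and NK markers lay between 4.91 and 8.99 and 8 measured myeloid markers, of 11 listed, between 4.90 and 9.16. Among 8 plasma cell markers IRF4 was highest at 13.05, and among 11 fibroblast and epithelial markers KRT8 was highest at 11.26, above the signal of several B-lineage markers. Untreated replicate 2 stood apart, with a first-component score of 54.4 against -29.9 to 16.4 on the other arrays. Within the 8 h group, replicate 2 was the lowest array for 8 of the 8 transporters, and it was also the lowest for 61.8% of the 6706 clusters in the same range of brightness (mean signal 9.01 to 12.39). In that range, replicate 2 was also the lowest array of its group for 67.8% of clusters at 0 h and 53.1% at 24 h. The p-values measure the spread among separate cultures of 1 line. In whole cultures, fewer cells that express a gene and less RNA per cell cannot be told apart.

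**Figure D1:**
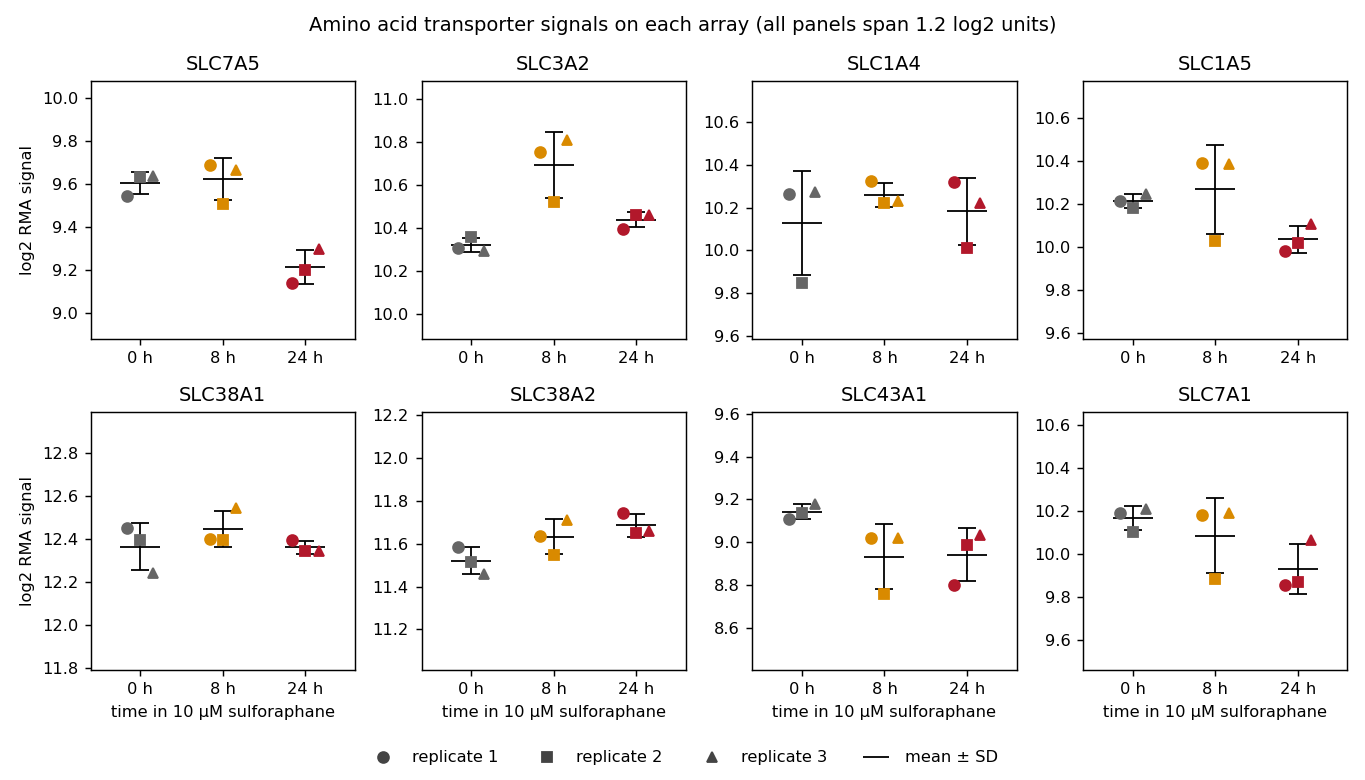
Log2 RMA signal of the 8 measured transporter genes on each array (points, shaped by replicate) against time in 10 µM sulforaphane, with the mean and SD of 3 arrays as a bar. SLC7A5 lies between 9.14 and 9.30 at 24 h, below all arrays at 8 h and 0 h, and replicate 2 is the lowest 8 h array in every panel.

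SLC7A5, the leucine carrier, was the only transporter called in any of the 3 comparisons, and it fell at 24 h. Its signals were 9.55, 9.63 and 9.64 in untreated cultures at 0 h, 9.69, 9.51 and 9.67 at 8 h, and 9.14, 9.20 and 9.30 at 24 h. The 24 h arrays lay below every other array, while the 8 h and untreated arrays overlapped. At 24 h against 0 h, SLC7A5 fell by 0.39 ± 0.07 on the log2 scale, a 1.31-fold lower signal (adjusted p = 0.045). The 24 h arrays averaged 0.41 below the 8 h arrays (-0.41 ± 0.07, adjusted p = 0.085), which did not pass, and the 8 h arrays differed from the untreated ones by 0.02 ± 0.07 (95% interval -0.15 to 0.19).

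The call of SLC7A5 at 24 h was near the threshold. It was lost without 1 array in 7 of 9 fits: without untreated replicate 2 (adjusted p = 0.079) or 3 (adjusted p = 0.14), 8 h replicate 1 (adjusted p = 0.088) or 3 (adjusted p = 0.084), or 24 h replicate 1 (adjusted p = 0.18), 2 (adjusted p = 0.11) or 3 (adjusted p = 0.10). In these 7 fits between 21 and 314 of all clusters were called in that comparison, against 357 with all arrays, so losses were not particular to SLC7A5. Its value without each array in turn stayed between -0.43 and -0.36.

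SLC3A2, the heavy chain, followed another course. Its signals were 10.31, 10.36 and 10.29 at 0 h, 10.75, 10.52 and 10.81 at 8 h, and 10.40, 10.46 and 10.46 at 24 h. All 8 h arrays lay above all untreated arrays, and so did all 24 h arrays, by a smaller distance. At 8 h against 0 h the change was 0.37 ± 0.08 (95% interval 0.19 to 0.56, adjusted p = 0.084), which did not pass. Without 8 h replicate 2, the lowest array of its group, it was 0.46 (adjusted p = 0.036). At 24 h the value was 0.12 ± 0.08 above 0 h (adjusted p = 0.40) and 0.26 ± 0.08 below 8 h (-0.26 ± 0.08, adjusted p = 0.31).

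Both chains were measured on the same arrays, so a shift equal for all clusters of an array cancels in their difference. A shift that varies with brightness need not cancel. Such variation was present: 8 h replicate 2 was the lowest of its group for 44.8% of all clusters, against 61.8% in the brightness range of the transporters. SLC3A2 minus SLC7A5 was 0.76, 0.73 and 0.66 at 0 h, 1.06, 1.01 and 1.14 at 8 h, and 1.26, 1.26 and 1.16 at 24 h. The 3 groups did not overlap, and 8 h replicate 2, low for each chain alone, was also the lowest 8 h array here. The mean difference was 1.07 ± 0.07 at 8 h against 0.72 ± 0.05 at 0 h, and 1.23 ± 0.05 at 24 h against the same 0 h arrays. The ratio of heavy to light chain signal was therefore 1.28-fold higher at 8 h and 1.42-fold higher at 24 h than in untreated cultures. The pair was examined after its values were seen, so the difference is a description with no test, and an unequal change of signals says nothing of protein.

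**Figure D2:**
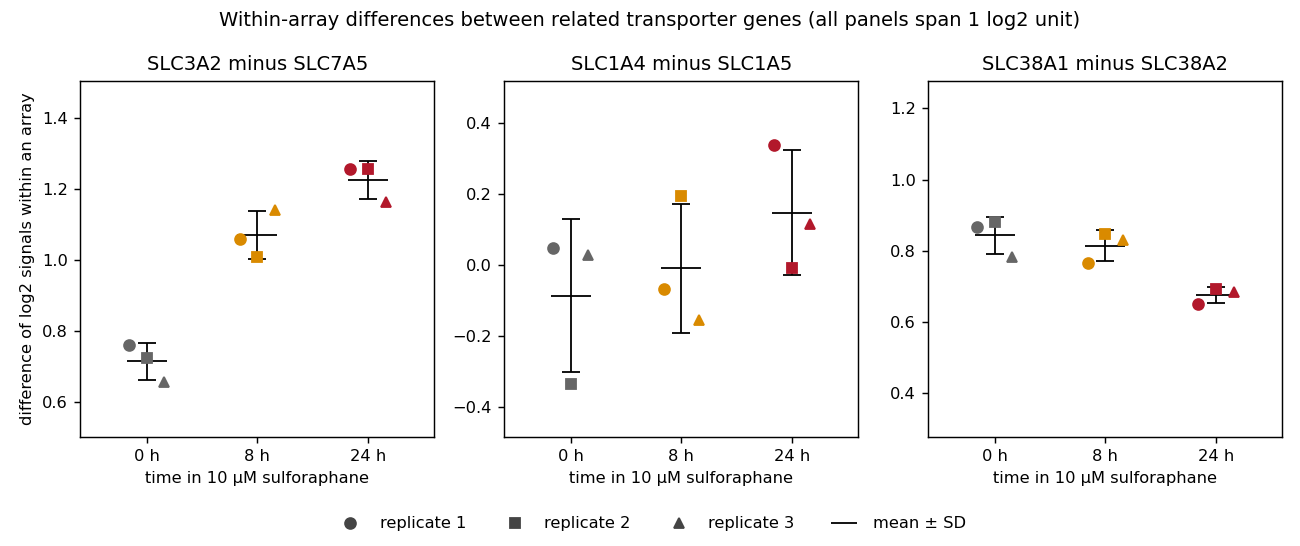
Difference of log2 signals within an array (vertical axis) for the chains of CD98 and for 2 pairs of related carriers, against time in sulforaphane; points are arrays and bars are mean ± SD of 3 arrays. SLC3A2 minus SLC7A5 separates all 3 groups, with means of 0.72, 1.07 and 1.23 at 0, 8 and 24 h.

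None of the glutamine and small neutral amino acid carriers passed the test. SLC1A5, which brings in glutamine, had signals of 10.21, 10.18 and 10.24 at 0 h, 10.39, 10.03 and 10.38 at 8 h, and 9.98, 10.02 and 10.10 at 24 h. Its 24 h arrays lay below the untreated ones, and its 8 h arrays lay on both sides of them, with replicate 2 the low one. The change was -0.18 ± 0.10 at 24 h against 0 h (adjusted p = 0.33), 0.06 ± 0.10 at 8 h against 0 h (adjusted p = 0.80) and -0.23 ± 0.10 at 24 h against 8 h (adjusted p = 0.48). Without 8 h replicate 2, SLC1A5 was at 0.17 for 8 h against 0 h (adjusted p = 0.26) and at -0.35 for 24 h against 8 h (adjusted p = 0.13). The second, dimmer cluster of SLC1A5 gave -0.20 ± 0.15 at 24 h against 0 h. SLC1A4, its relative, had signals of 10.26, 9.85 and 10.27 at 0 h, 10.32, 10.22 and 10.23 at 8 h, and 10.32, 10.01 and 10.22 at 24 h. Untreated replicate 2 was the low array, and the groups overlapped in all 3 comparisons. Without it, the change of SLC1A4 at 24 h against 0 h was -0.08 (adjusted p = 0.71), against 0.06 ± 0.13 with it (adjusted p = 0.80).

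The sodium-coupled carriers SLC38A1 and SLC38A2 belong to the same family and are close neighbours on chromosome 12. SLC38A1 had signals of 12.45, 12.40 and 12.24 at 0 h, 12.40, 12.39 and 12.54 at 8 h, and 12.39, 12.34 and 12.34 at 24 h, with overlap between all groups. SLC38A2, known to be induced when amino acids run short, had signals of 11.59, 11.52 and 11.46 at 0 h, 11.64, 11.55 and 11.71 at 8 h, and 11.74, 11.65 and 11.66 at 24 h. Its 24 h arrays all lay above the untreated ones. The change at 24 h was 0.16 ± 0.07 (unadjusted p = 0.038 with limma, adjusted p = 0.23), which did not pass. SLC38A1 minus SLC38A2 within an array was 0.67 ± 0.02 at 24 h, against 0.84 ± 0.05 at 0 h, with no overlap, again without a test.

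SLC7A1, the arginine and lysine importer, had signals of 10.19, 10.10 and 10.21 at 0 h, 10.18, 9.88 and 10.19 at 8 h, and 9.86, 9.87 and 10.06 at 24 h. The 24 h arrays lay below the untreated arrays, and 8 h replicate 2 lay with the 24 h arrays. The change was -0.24 ± 0.10 at 24 h against 0 h (unadjusted p = 0.044 with limma, adjusted p = 0.24). SLC43A1, the sodium-independent leucine carrier, had signals of 9.11, 9.14 and 9.18 at 0 h, 9.02, 8.76 and 9.02 at 8 h, and 8.80, 8.99 and 9.04 at 24 h. Its treated arrays lay below every untreated array at both times. The changes were -0.21 ± 0.09 at 8 h (adjusted p = 0.34) and -0.20 ± 0.09 at 24 h (adjusted p = 0.27), and neither passed. Without 8 h replicate 2, the 8 h change of SLC43A1 was -0.12 (adjusted p = 0.53), and without 24 h replicate 1 its 24 h change was -0.13 (adjusted p = 0.59). The clusters shared by SLC7A6 and SLC7A6OS, whose signals cannot be assigned to either gene, gave values of 0.16 ± 0.09 and 0.13 ± 0.12 at 24 h against 0 h (adjusted p = 0.32 and 0.52). At 8 h against 0 h the same clusters gave 0.24 ± 0.09 and 0.08 ± 0.12 (adjusted p = 0.26 and 0.76).

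**Figure D3:**
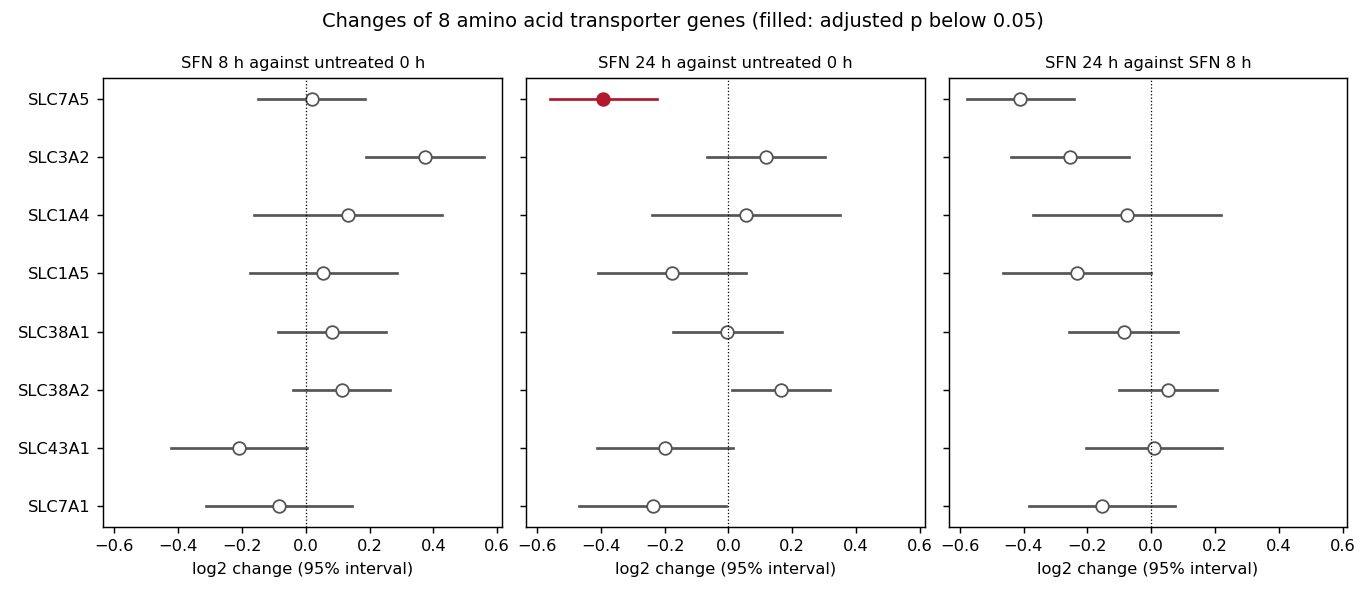
Log2 change of the 8 measured transporter genes (points) with the 95% interval of limma (lines) in the 3 comparisons, with n = 3 arrays per group. The interval of SLC7A5 at 24 h against 0 h runs from -0.56 to -0.22, and it is the only filled point.

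Counted over the set, limma called 0 of 8 measured transporters at 8 h against 0 h, where 0.595% of all clusters were called (0.268% higher and 0.327% lower), and 1 of 8 had an unadjusted p below 0.05, against 15.1% of all clusters. SLC3A2 had all 8 h arrays above all untreated arrays, as 9.06% of all clusters did, and SLC43A1 had them below, as 8.55% did. The median change of the 8 was 0.07, beside -0.01 over all clusters. At 24 h against 0 h, 0 rose and 1 fell, where 1.62% of all clusters were called, 0.831% higher and 0.791% lower. An unadjusted p below 0.05 was reached by 3 of the 8, against 20.4% of all clusters. In that comparison 4 of the 8 had all 24 h arrays below all untreated arrays, namely SLC7A5, SLC1A5, SLC43A1 and SLC7A1, against 8.75% of all clusters, and 2 had them above, SLC3A2 and SLC38A2, against 15.6%. The median change was -0.09, beside 0.02 over all clusters. At 24 h against 8 h, 0 of 8 were called, where 0.327% of all clusters were called (0.1% higher and 0.227% lower), and 3 of 8 had an unadjusted p below 0.05, against 10.4% of all clusters. SLC7A5 and SLC3A2 had all 24 h arrays below all 8 h arrays, as 6.4% of all clusters did, and 0 of 8 had them above, against 15.2%. The median change was -0.12, beside 0.02 over all clusters. The 3 comparisons share arrays, so their counts are not independent. The members were chosen with earlier results of these data known, so a count above the share of all clusters is no test of the set.

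Other amino acid carriers were not called either. Of 21 measured carriers of the plasma membrane outside the set, 0 passed at 8 h (median -0.06) and 0 at 24 h (median -0.03), while 3 and 2 of the 21 had an unadjusted p below 0.05, against 15.1% and 20.4% of all clusters. Between the treated times 0 passed as well (median 0.03), with 1 of 21 at an unadjusted p below 0.05, against 10.4% of all clusters. SLC7A11, which exchanges cystine for glutamate and is a known NRF2 target, had the largest change of this list at 8 h, with signals of 8.70, 7.83 and 8.68 at 0 h, 9.58, 9.39 and 9.45 at 8 h, and 8.98, 8.62 and 8.90 at 24 h. Its 8 h arrays all lay above the untreated ones, of which replicate 2 was far below the others, and the change of 1.07 ± 0.23 did not pass (adjusted p = 0.080). Without untreated replicate 2 that change was 0.78 and passed (adjusted p = 0.030), and over all alternatives its adjusted p lay between 0.0095 and 0.24. Leaving out that array also raised the calls over all clusters at 8 h from 131 to 291. SLC7A7, another light chain of SLC3A2, was 0.52 ± 0.13 lower at 8 h (-0.52 ± 0.13, adjusted p = 0.12) and had a value of -0.47 ± 0.13 at 24 h (adjusted p = 0.12). Without 8 h replicate 2 its 8 h change was -0.36 (adjusted p = 0.13). SLC7A11 at 24 h against 8 h (-0.64 ± 0.23, adjusted p = 0.36) did not pass. SLC38A3 at 24 h against 0 h (-0.20 ± 0.08) and SLC1A1 at 24 h against 8 h (0.27 ± 0.13) did not pass, and SLC1A1 was at 0.16 without 8 h replicate 2 (adjusted p = 0.81).

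Of 12 lysosomal and vesicular carriers and 10 mitochondrial carriers, 0 passed in any comparison with limma. Not all of them are amino acid carriers: SLC29A3 carries nucleosides and SLC25A39 glutathione. The lysosomal list had a median of 0.08 at 24 h against 0 h, where 2 of 12 had an unadjusted p below 0.05, against 20.4% of all clusters. SLC38A9, a lysosomal arginine sensor of mTORC1, had a change of 0.68 ± 0.22 (adjusted p = 0.16), with signals of 9.59, 9.12 and 9.30 at 24 h and 9.03, 8.14 and 8.80 at 0 h. Without untreated replicate 2 it was 0.42 (adjusted p = 0.22). SLC7A14 at 24 h against 0 h (-0.29 ± 0.06, adjusted p = 0.067) and SLC29A3 (-0.17 ± 0.06) and MFSD12 (-0.18 ± 0.07) at 8 h did not pass. SLC25A29, a mitochondrial carrier of basic amino acids, had signals of 8.18, 8.02 and 8.15 at 8 h, against 8.38, 8.48 and 8.58 at 0 h (-0.36 ± 0.07, adjusted p = 0.069). At 24 h its signals were 8.47, 8.46 and 8.45, within the untreated range and above all 8 h arrays (0.34 ± 0.07 against 8 h, adjusted p = 0.13). SLC25A39 at 8 h (-0.26 ± 0.08), and SLC25A12 (0.36 ± 0.15) and SLC25A18 (-0.19 ± 0.08) at 24 h against 0 h, did not pass. At 24 h against 8 h, SLC7A14 (-0.25 ± 0.06, adjusted p = 0.21), SLC29A3 (0.22 ± 0.06, adjusted p = 0.26) and SLC25A39 (0.23 ± 0.08, adjusted p = 0.40) did not pass either. Without untreated replicate 2, SLC25A12 was at 0.19 (adjusted p = 0.43). In these 2 lists, 2 of 12 and 2 of 10 members had an unadjusted p below 0.05 at 8 h against 0 h, against 15.1% of all clusters, and the same numbers held at 24 h against 8 h, against 10.4%. At 24 h against 0 h, 2 of the 10 mitochondrial carriers did, against 20.4%.

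Among 25 measured genes of ATF4 and its amino acid response, 0 passed at 8 h or 24 h against 0 h with limma, with medians of 0.01 and 0.02, while 3 and 6 of the 25 had an unadjusted p below 0.05, against 15.1% and 20.4% of all clusters. ATF4 itself, named as the factor of the list, differed by -0.07 ± 0.09 at 8 h (adjusted p = 0.73) and 0.03 ± 0.09 at 24 h (adjusted p = 0.83). PPP1R15A, a regulatory subunit of the phosphatase that reverses the stress block of translation, differed by 0.30 ± 0.08 at 8 h (adjusted p = 0.12) and 0.37 ± 0.08 at 24 h (adjusted p = 0.060). DDIT4, an inhibitor of mTORC1 signalling, differed by -0.35 ± 0.08 at 8 h (adjusted p = 0.097). At 24 h against 8 h, 1 of the 25 passed, where 0.327% of all clusters were called: PHGDH, the first enzyme of serine synthesis, fell by 0.50 ± 0.07 on the log2 scale (adjusted p = 0.043). Its signals were 8.47, 8.42 and 8.38 at 24 h, against 8.92, 8.99 and 8.88 at 8 h, without overlap. The call was lost without any 1 array except untreated replicate 2 (adjusted p between 0.062 and 0.21 without the other 8). Over all clusters, 72 were called with all arrays, 160 without untreated replicate 2, and between 4 and 53 in the other 8 fits.

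The MYC network and amino acid sensing showed no called member. Of 11 measured genes of the MYC network, 0 passed with limma, while 3, 5 and 2 of the 11 had an unadjusted p below 0.05 at 8 h, at 24 h and between the treated times, against 15.1%, 20.4% and 10.4% of all clusters. MYC had signals of 11.97, 12.00 and 11.79 at 8 h, against 11.45, 11.15 and 11.55 at 0 h, with a change of 0.54 ± 0.11 (adjusted p = 0.080), and of 11.80, 11.62 and 11.76 at 24 h (0.34 ± 0.11, adjusted p = 0.17). Without untreated replicate 2 the 8 h value of MYC was 0.42 (adjusted p = 0.083) and its 24 h value 0.23 (adjusted p = 0.29). MXD1, which competes with MYC for MAX, differed by 0.69 ± 0.12 at 8 h (adjusted p = 0.051) and 0.60 ± 0.12 at 24 h (adjusted p = 0.050, just above the threshold). Both genes lay above all untreated arrays at both times. Of 32 measured genes of amino acid sensing by mTORC1, 0 passed with limma, while 8, 8 and 3 of the 32 had an unadjusted p below 0.05, against the same shares of all clusters (15.1%, 20.4% and 10.4%), and the list medians were -0.04 at 8 h and 0.11 at 24 h against 0 h. RRAGC, a Rag GTPase that brings mTORC1 to the lysosome, had signals of 10.76, 10.56 and 10.61 at 24 h, against 10.25, 9.62 and 10.16 at 0 h (0.63 ± 0.15, adjusted p = 0.092). Without untreated replicate 2, the low array, it was 0.44 and passed (adjusted p = 0.046). WDR59 at 24 h (0.29 ± 0.07), AKT1S1 (0.27 ± 0.06) and TSC1 (0.36 ± 0.09) at 8 h, and NPRL2 (0.41 ± 0.12) and NPRL3 (-0.14 ± 0.06) at 24 h against 8 h did not pass, nor did MXD3 (-0.18 ± 0.06) and MXI1 (0.17 ± 0.06) between the treated times. Of 10 measured genes of glutamine, branched chain and proline metabolism, 0 passed with limma, and P4HA1, a prolyl hydroxylase subunit, had a change of 0.44 ± 0.13 at 24 h (adjusted p = 0.13). In that list 3, 1 and 1 of the 10 had an unadjusted p below 0.05 at 8 h, at 24 h and between the treated times, against 15.1%, 20.4% and 10.4% of all clusters. GOT2 (-0.30 ± 0.08) and BCKDK (-0.27 ± 0.09) at 8 h, BCKDK (-0.19 ± 0.09) at 24 h, and BCKDHB (0.39 ± 0.15) and GOT1 (-0.17 ± 0.09) between the treated times did not pass.

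**Figure D4:**
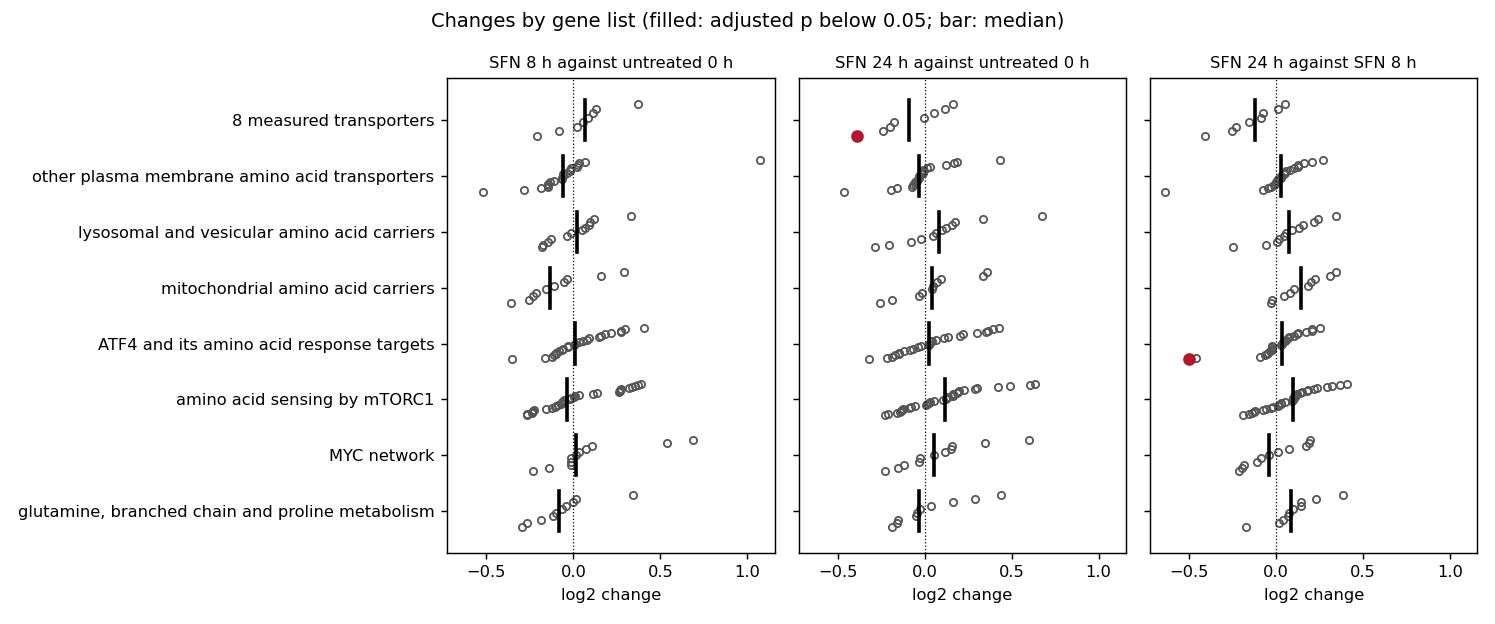
Log2 changes (horizontal axis) of the 8 measured transporters and of 7 other gene lists in the 3 comparisons; points are genes, bars are list medians and filled points passed an adjusted p below 0.05. SLC7A5 at 24 h against 0 h and PHGDH at 24 h against 8 h are the only filled points.

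The genes whose signal followed SLC7A5 most closely over the 9 arrays were UBE2C (Pearson r = 0.990), RHNO1 (0.981), HCFC1 (0.979), FOXM1 (0.978) and NEK2 (0.977), out of 14231 other named genes. UBE2C is a ubiquitin-conjugating enzyme of mitosis, FOXM1 a transcription factor of dividing cells and NEK2 a centrosomal kinase. Their differences at 24 h against 0 h were -0.48 ± 0.09 (UBE2C), -0.19 ± 0.06 (RHNO1), -0.41 ± 0.07 (HCFC1), -0.99 ± 0.10 (FOXM1) and -0.64 ± 0.10 (NEK2), a direction fixed by choosing them for their likeness to SLC7A5 on the same arrays. Those nearest to SLC3A2 were BRD1 (0.979), SCIMP (0.969), PWWP3A (0.967), L3MBTL1 (0.965) and DDB2 (0.964). These correlations describe 9 arrays in 3 groups that share treatment and time, and carry no test.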

How the data were processed

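Per the labels and the series' design text, the authors used Affymetrix Expression Console for RMA at gene level on core probes, with sketch-quantile normalization. Each deposited value is a log2 signal of 1 cluster on 1 array. The sources used here name neither tool versions nor a genome build. Symbols came from GEO's platform annotation and were updated through gene identifiers: 14432 clusters carried 1 symbol, 2408 several and 5171 none.

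The values were fitted as deposited with limma 3.58.1 in R 4.3.3, with 1 mean per group over all 9 arrays and two-sided moderated tests. P-values were adjusted over all 22011 clusters. No filter was applied. The fit was also run on simulated data with independent noise and no array effects. That run cannot show how calls respond to an outlying array. The motif search ran in Python 3.11.15. Arrays give no counts, and their number limits the precision.

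Same-numbered arrays were checked for pairing: their deviations from group means correlated between -0.14 and 0.39. The highest values were 0.39 and 0.38, for replicates 1 and 2 at 24 h against 0 h. No label says that a number marks a shared batch, so replicate numbers were used as a block only in an alternative. The text names all members and, in each comparison, up to 4 called members of each other list, or those 2 with the smallest p, with the 5 genes most like SLC7A5 and SLC3A2. ATF4 was named outside that rule. Members and lists were chosen with earlier results of these data known. Alternatives were a replicate block, filters on dim clusters, quantile normalization, median centring, other priors, array weights, fits of 2 groups, a threshold of 0.01, averaged clusters and leaving out each array.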

Additional observations from a re-analysis of the deposited data

Results flagged for a closer look

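PHGDH, the first enzyme of serine synthesis, differed between the treated times in a direct test. Its change at 24 h against 8 h was -0.50 ± 0.07 (limma, adjusted p = 0.043, lower on 3 of 3 arrays at 24 h than on any at 8 h). Against 0 h it was 0.18 ± 0.07 higher at 8 h (adjusted p = 0.30) and was at -0.32 ± 0.07 at 24 h (adjusted p = 0.075). The cause was not tested. The direct test of SLC7A5 between the treated times did not pass (adjusted p = 0.085).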

How the results depend on the processing

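The 1 call among the transporters, SLC7A5 at 24 h against 0 h, kept its direction in 20 of 20 alternatives and passed in 10 of them (adjusted p between 0.015 and 0.18). Its change lay between -0.52 and -0.36 over these alternatives. The number of members called in that comparison was 0 with the replicate block (adjusted p = 0.059 for SLC7A5), with only the 2 groups compared (adjusted p = 0.11) and at the threshold of 0.01, and between 0 and 1 without each array in turn. At 8 h against 0 h it was 1, SLC3A2, with array weights estimated gene by gene (adjusted p = 0.0097), and between 0 and 1 without each array in turn. At 24 h against 8 h it was 1 without clusters below the median, SLC7A5 (adjusted p = 0.048), and 2 with gene-by-gene weights, SLC7A5 (adjusted p = 0.0097) and SLC3A2 (adjusted p = 0.027). These weights were uneven, from 0.16 for untreated replicate 2 to 3.26 for 24 h replicate 3. The share of all clusters called in these fits is not given here, so the member counts cannot be set against it. No called value changed sign. Of 161 alternative values of members in each comparison, 9 at 8 h, 10 at 24 h and 6 between the treated times changed sign while not called in either fit, so directions of the small changes are not settled. PHGDH at 24 h against 8 h passed in 9 of 20 alternatives. Among others, it was lost with the block (adjusted p = 0.11) and without each array except untreated replicate 2. The within-array difference SLC3A2 minus SLC7A5 changed by 0.32 to 0.39 at 8 h and 0.48 to 0.54 at 24 h over its alternatives. An estimate of array weights by limma's default method did not converge, so that alternative was not run. The gene-by-gene weights, the pairs, the shared SLC7A6 clusters and the second SLC1A5 cluster were chosen after seeing the data. Whether same-numbered arrays share a batch is not stated in the labels and was not settled by the correlations of their deviations. Signals near background cannot be told from unexpressed genes, since no detection values were used here.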
